A study of Homo sapiens with 8 samples.

Results

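The genes described here were 41 interferon-stimulated genes, chosen by symbol as a set with this shared regulation, in HepG2 cells treated with inhibitors of EZH1 and EZH2. Of the 41 symbols, 39 were found among the 25603 genes of the deposited table, and PSMB8 and PSMB9, subunits of the immunoproteasome, were not analysed here. HepG2 is an established human hepatocarcinoma cell line. The EZHi group was exposed for 4 days to UNC1999 together with valemetostat tosylate (spelled Valmetostat Tosylate in the labels), each at 1 µM, and the vehicle group to DMSO. Each group had 4 libraries of mRNA read as pairs of 150 bases, from replicates that the study calls independent, and both groups grew in the same medium with serum, insulin and dexamethasone. No group received an interferon, so the comparison addressed whether inhibition of EZH1/2 alone raised these genes in this 1 line, and it holds no measure of how far they can rise.

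Cells secrete interferons after sensors such as TLR3, RIG-I and IFIH1 meet foreign or misplaced nucleic acids. Type I and type III interferons bind their receptors and, through the kinases JAK1 and TYK2, bring STAT2 and IRF9 into a complex that binds an interferon-stimulated response element and switches on many genes. The products restrict viruses at entry, at translation or by degrading RNA, and hepatocytes respond to each type. The targets of the drugs, EZH1 and EZH2, catalyse the repressive methylation of histone H3 by Polycomb.

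The response element holds repeats of GAAA with a pair of bases between them, so promoters were searched for GAAANNGAAA on both strands. RefSeq promoters (GRCh38.p14, from 250 bases before to 50 after each start site) were matched for 32 of the 39 genes, and those of GBP2, IFIT2, IFITM2, IRF7, OAS2, OASL and USP18 were not. The motif was present in 23 of the 32 (71.9%), and in 4.38% of the 27305 genes with a promoter there. It was held by 7 of 9 members that were higher in EZHi (77.8%), by 5 of 7 that were higher only in a fit pairing the libraries by replicate number (71.4%), and by 6 of 9 that were called in neither fit (66.7%). These shares were not tested against each other. Matches are descriptions of letters and not of bound sites.

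The sequences below are windows of 30 bases around a match, read on the strand that carries the motif, with the motif in capitals. The first 6 belong to genes that were higher in EZHi. The next is shared by DTX3L and PARP9, which were higher only in the paired fit, and is followed by that of IFITM1, which was lower only in the paired fit. The last are those of ISG15 and MX1, which passed neither fit. Every window was taken around a match, so the likeness of the motifs was set by the search and is not a result. Where a gene had several matches, 1 is given here. XAF1 and HERC6, also higher in EZHi, had a promoter but no match.
IFI6, chr1:27672288-27672317, minus strand: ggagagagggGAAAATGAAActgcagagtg
IFIT1, chr10:89392497-89392526, minus strand: accgaaagggGAAAGTGAAActaaagctag
IFIT3, chr10:89332468-89332497, minus strand: aaggggaaagGAAAGTGAAActgatggaac
IFIT5, chr10:89414513-89414542, minus strand: gtaagcttcaGAAACCGAAActtaatagaa
GBP1, chr1:89065316-89065345, plus strand: agagtaatatGAAACTGAAAgtacttcgtt
SAMD9, chr7:93118096-93118125, minus strand: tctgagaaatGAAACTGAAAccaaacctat
DTX3L and PARP9, chr3:122564322-122564351, plus strand: ccagggaagcGAAACTGAAActttgcgccc
IFITM1, chr11:314024-314053, plus strand: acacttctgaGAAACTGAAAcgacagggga
ISG15, chr1:1013380-1013409, plus strand: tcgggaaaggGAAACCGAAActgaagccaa
MX1, chr21:41420559-41420588, plus strand: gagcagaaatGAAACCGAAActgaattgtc
DTX3L and PARP9 lie head to head on chromosome 3 and share the 1 match between them. IFI6 carried 3 matches within its 250 bases upstream of the start site, which are shown whole because IFI6 had the largest rise of the group, with ISG15 beside it as the member whose promoter held 3 repeats in a row (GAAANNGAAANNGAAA, found in 3 of the 32 members, BST2, IFIH1 and ISG15, and in 0.187% of all genes with a promoter).
IFI6, chr1:27672193-27672442, minus strand: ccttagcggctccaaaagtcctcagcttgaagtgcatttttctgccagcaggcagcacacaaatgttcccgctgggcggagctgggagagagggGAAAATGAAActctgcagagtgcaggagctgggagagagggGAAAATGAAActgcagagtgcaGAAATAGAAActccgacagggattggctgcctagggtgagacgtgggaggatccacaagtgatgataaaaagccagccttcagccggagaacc
ISG15, chr1:1013247-1013496, plus strand: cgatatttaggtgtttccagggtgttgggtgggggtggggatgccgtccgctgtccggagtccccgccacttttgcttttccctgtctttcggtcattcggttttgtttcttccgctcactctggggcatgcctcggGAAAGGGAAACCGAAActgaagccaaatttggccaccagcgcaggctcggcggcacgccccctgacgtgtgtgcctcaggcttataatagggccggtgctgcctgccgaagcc

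Values below are on the deposited log2 scale, corrected for transcript length, and levels between genes are given as estimated FPKM (fragments per kilobase of transcript and per 1e6 fragments). A gene was tested where its mean estimated FPKM over the 8 libraries was at least 0.1, and it is described as called where limma gave an adjusted p under 0.05 over all 20153 genes tested. Of the 39 genes, 33 were tested. IRF7, IFI16, IFI27, IFI44, IFI44L and DDX60 were not, the highest of them being IFI27 at 0.0685 and IFI44L at 0.0683, and the lowest that passed were SAMD9 at 0.111, OAS2 at 0.121 and IFIT2 at 0.127. SAMD9 and OAS2 passed through the EZHi libraries, since their vehicle means were 0.0886 and 0.0938. The deposited scale shrinks differences of genes with few reads, so changes of low genes are understated, and read depth is unknown.

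The number of interferon-stimulated genes that rose with EZHi depended on whether the libraries were paired by replicate number. Of the 33 tested genes, 10 were called higher without pairing, 7 of them at an estimated FPKM under 1, and 18 with it, 8 of them under 1. Without regard to replicate number, 10 of the 33 tested genes were called higher, where 8.85% of all genes tested were, and 2 were called lower, where 4.27% were. The higher genes were IFI6, IFIT3, IFIT5, IFIT1, XAF1, HERC6, EPSTI1, GBP1, SAMD9 and OASL, and the lower ones GBP2 and STAT2. Of these, SAMD9 was tested only because its EZHi libraries raised its mean over the filter. IFI6 and IFIT3 rose and GBP2 fell at least 2-fold. Among the 33 genes, every EZHi library was above every vehicle library in 10, where 10.7% of all genes were so. Every EZHi library was below in 2, where 7.93% were. These were the same genes as those called, from the same values. The median log2 change over the 33 genes was 0.27, beside -0.01 over all genes tested. In a bulk sample, fewer responding cells and less RNA per cell cannot be told apart.

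**Figure D1:**
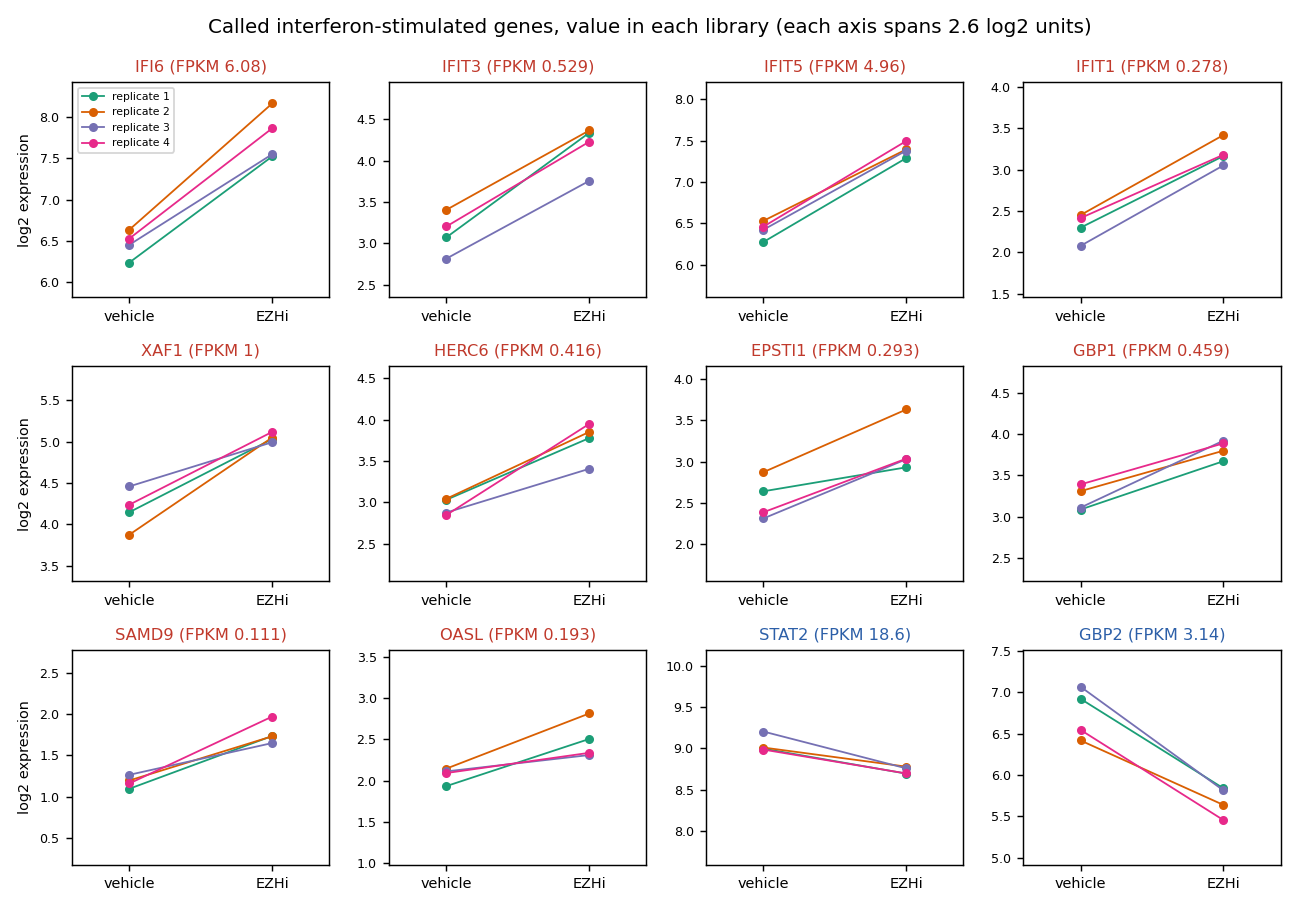
Log2 expression of the 12 called genes in each library, with vehicle on the left and EZHi on the right and lines joining libraries of the same replicate number; the mean estimated FPKM stands in each title, red for higher and blue for lower. All 4 lines rise in the 10 higher genes and fall in STAT2 and GBP2.

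The libraries carry a common pattern across replicate numbers. Over all genes, deviations from the group mean correlated between same-numbered libraries in each of the 4 pairs. The numbers were therefore taken to pair the libraries, and results of a fit with replicate number as a block are given beside the others. Vehicle replicate 1 with EZHi replicate 2 (0.199) and vehicle replicate 2 with EZHi replicate 1 (0.163) also correlated. In the interferon-stimulated genes the libraries numbered 2 ran high and those numbered 3 ran low. Vehicle replicate 2 was the highest of its group in 24 of the 33 genes and EZHi replicate 2 in 23, and replicate 3 was the lowest in 18 and 19. The mean over the 33 genes was 6.24, 6.39, 6.13 and 6.23 in vehicle replicates 1 to 4 and 6.49, 6.74, 6.36 and 6.50 in EZHi replicates 1 to 4. EZHi exceeded vehicle in each pair, by 0.25, 0.35, 0.24 and 0.27, yet EZHi replicate 3 lay below vehicle replicate 2. ALB, the albumin gene that marks hepatocytes, ran the other way, at 17.29 in vehicle replicate 2 and 18.78 in vehicle replicate 3, and at 17.20 and 18.37 in the EZHi libraries of those numbers. Its part in the pattern was not tested.

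With the replicate block, 18 of the 33 genes were called higher, where 14.9% of all genes were, and 4 were called lower, where 15.1% were. The 12 genes called without the block were called with it too. The block added DTX3L, IFIH1, OAS1, OAS2, OAS3, PARP14, PARP9 and UBE2L6 as higher, and IFITM1 and IFITM2 as lower. BST2, GBP3, IFI35, IFIT2, IFITM3, IRF1, IRF9, ISG15, ISG20, MX1 and USP18 were called in neither fit. With the pair numbered 2 left out, 15 genes were higher and 4 lower, where 2546 and 2497 of all 20153 genes were. With the pair numbered 3 left out, 16 were higher and 3 lower, where 2367 and 1895 of all genes were. All 4 pairs were higher in 19 of the genes, as in 20.6% of all genes, and lower in 5, as in 24.2%.

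**Figure D2:**
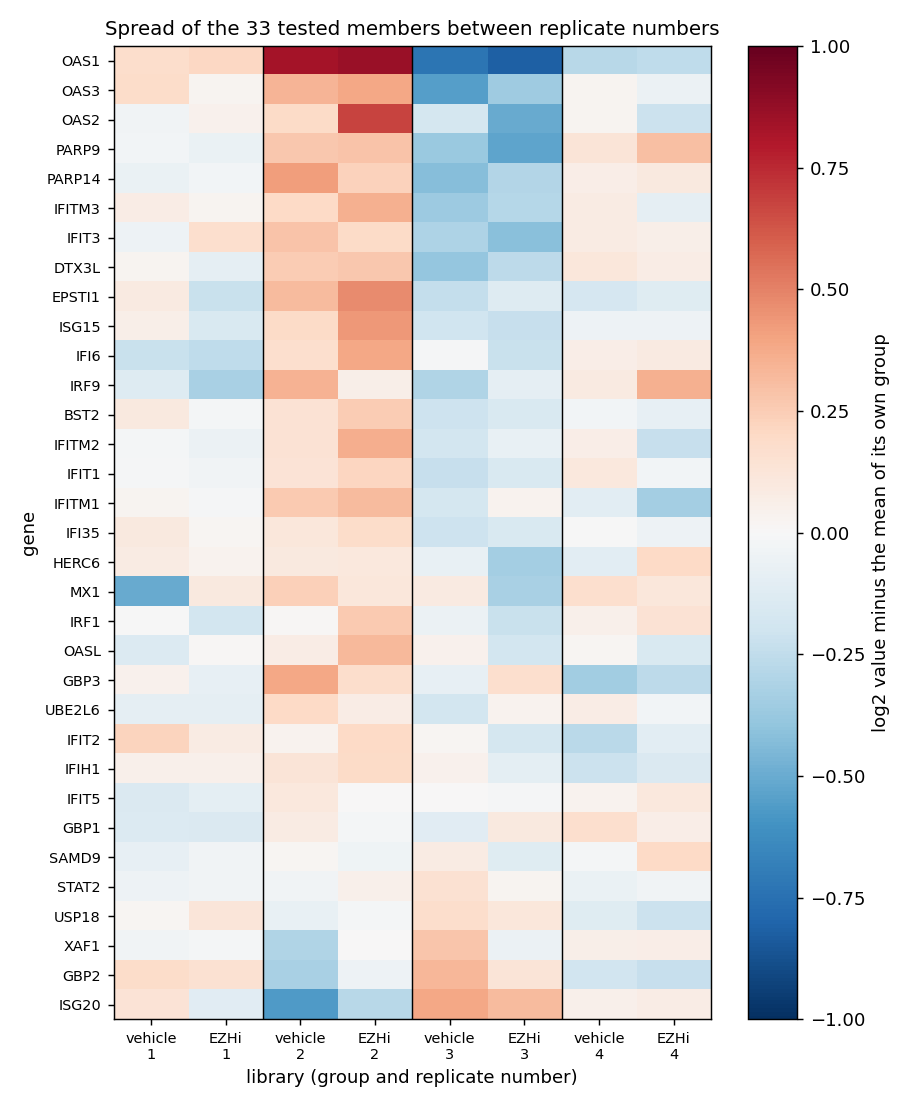
Deviation of each library from the mean of its own group, in log2 units, for the 33 tested genes (rows) and the 8 libraries grouped by replicate number (columns), red above and blue below. Columns numbered 2 are mostly red and those numbered 3 mostly blue in both groups, with ISG20 and GBP2 at the bottom running the other way, and XAF1 doing so in vehicle.

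Calls of a rise were more frequent among genes of low level. Among tested genes with a mean estimated FPKM under 1, 7 of 11 were called higher, where 13.8% of all such genes were. All 11 had a positive change, as had 4683 of all 7146 such genes. With the block, 8 of these 11 were higher (19% of all such genes). SAMD9, higher in both fits, and OAS2, higher with the block, passed the filter only through their EZHi libraries. From 1 to 10, 3 of 12 were called higher (11.3% of all such genes) and GBP2 lower (2.25%), and with the block 8 were higher (19.3%) and GBP2 lower (8.16%). At 10 and over, 0 of 10 were called higher by limma without the block (2.73%), where 1, UBE2L6, had an unadjusted p under 0.05, and STAT2 was lower (9.16%). In that class, DTX3L and UBE2L6 were higher with the block (8.2%), and IFITM1, IFITM2 and STAT2 were lower (32.5%). The median log2 change of all genes tested also fell with level, from 0.06 under 1 to 0.03 from 1 to 10 and -0.09 at 10 and over.

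**Figure D3:**
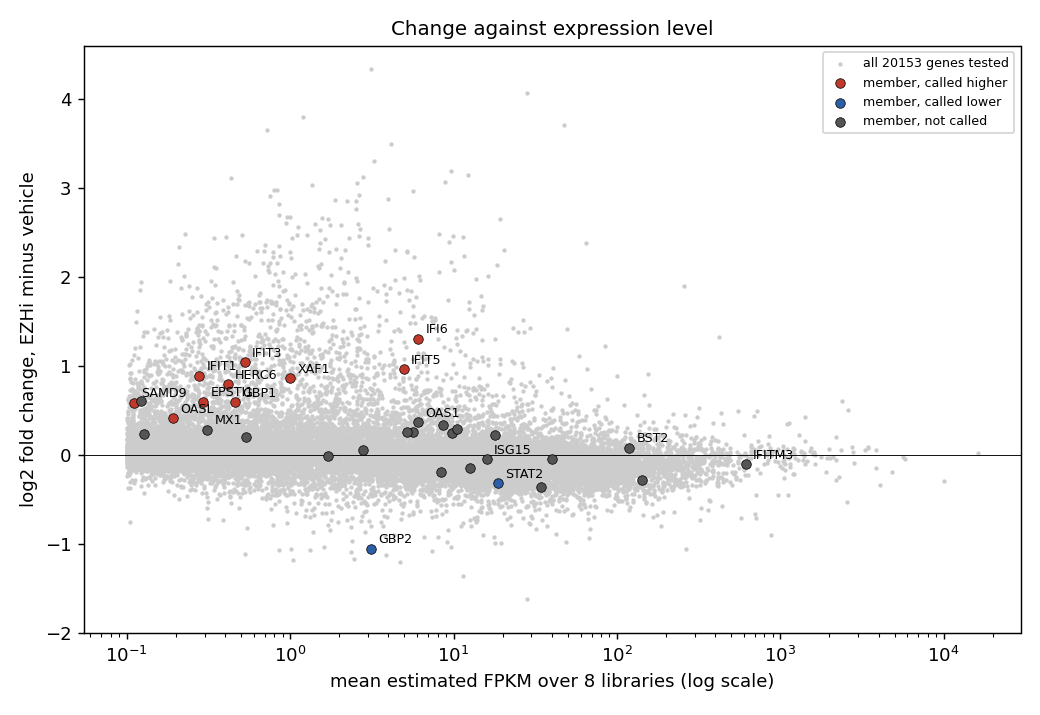
Log2 fold change (EZHi minus vehicle) against mean estimated FPKM on a log axis for all 20153 genes tested (grey) and the 33 interferon-stimulated genes, coloured by their call without the block. The red points lie at low and middle levels, with none at 10 and over, where ISG15, BST2 and IFITM3 sit near 0.

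The IFIT proteins bind viral RNA that lacks the host cap and hinder its translation. Of the 4 members, 3 were called higher with or without the block. Of all genes, 8.85% were higher without the block and 14.9% with it. The IFIT genes lie side by side on chromosome 10. IFIT1 (estimated FPKM 0.278) was at 2.30, 2.45, 2.08 and 2.41 in vehicle replicates 1 to 4 and at 3.16, 3.42, 3.05 and 3.18 in EZHi. IFIT3, which stabilises IFIT1, was at 3.07, 3.41, 2.82 and 3.20 in vehicle and at 4.34, 4.37, 3.76 and 4.23 in EZHi. IFIT5, the member expressed most here (4.96), was at 6.28, 6.53, 6.42 and 6.46 in vehicle and at 7.29, 7.40, 7.38 and 7.50 in EZHi. The groups did not overlap in any of the 3, and the lowest EZHi library of IFIT3, replicate 3, belonged to the pair that was low in vehicle as well. The log2 changes were 0.89 ± 0.11 (SE) for IFIT1 (limma adjusted p 0.000577), 1.05 ± 0.17 for IFIT3 (0.00268) and 0.97 ± 0.09 for IFIT5 (9.32e-05). IFIT2, at an estimated FPKM of 0.127, had a change of 0.24, which passed neither fit (limma adjusted p 0.222, and 0.0668 with the block).

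IFI6, a small protein of the endoplasmic reticulum that restricts flaviviruses, had the largest rise. It was at 6.24, 6.63, 6.45 and 6.53 in vehicle and at 7.52, 8.16, 7.55 and 7.86 in EZHi. Every EZHi library lay above every vehicle library and each pair rose by at least 1.10 log2 units, and the rise was 2.48-fold (log2 change 1.31 ± 0.15, limma adjusted p 0.000397). Of its annotated exon bases, 23.1% lie within LINC02574 on the same strand, whose reads cannot be told apart from those of IFI6 there. XAF1, a pro-apoptotic antagonist of XIAP, was at 4.15, 3.87, 4.46 and 4.24 in vehicle and at 5.03, 5.05, 4.99 and 5.12 in EZHi. It was even across the EZHi libraries and rose by a log2 change of 0.87 (limma adjusted p 0.00173). Of its exon bases, 38.3% overlap the antisense gene PRAL, and counting without strand cannot tell reads of XAF1 and PRAL apart there.

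EPSTI1, known from epithelial and stromal co-culture, was at 2.64, 2.87, 2.31 and 2.39 in vehicle and at 2.93, 3.63, 3.03 and 3.03 in EZHi, with replicate 2 apart from the others. Its change of 0.60 was at the threshold (limma adjusted p 0.0499), and its call was lost in 7 of the 8 fits that left out 1 library, all but that without vehicle replicate 2, with changes from 0.44 (without EZHi replicate 2) to 0.71. With the block the adjusted p was 0.00273. IFI35, which binds NMI, differed by -0.05 at an estimated FPKM of 39.8 and passed neither fit.

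The remaining genes of this kind were near the floor. IFI44L was at 0.56, 0.56, 0.57 and 0.72 in vehicle and at 0.78, 0.97, 0.87 and 1.26 in EZHi, on a log2 scale where its mean is an estimated FPKM of 0.0683. The groups did not overlap, and a fit with no filter gave a change of 0.37 with limma adjusted p 0.0487. IFI27 and IFI44, which are among the most inducible interferon genes in other cells, lay between 0.77 and 0.94 and between -0.63 and -0.42 in all 8 libraries. IFI16, a DNA sensor, lay between -0.92 and -0.77.

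The oligoadenylate synthetases OAS1, OAS2 and OAS3 make a second messenger that activates RNase L, while OASL lacks that activity and aids RIG-I. In OAS1, OAS2 and OAS3, replicate 2 was the highest and replicate 3 the lowest of each group. OAS1 was at 7.13, 7.78, 6.22 and 6.67 in vehicle and at 7.53, 8.18, 6.50 and 7.06 in EZHi. The spread between replicates exceeded the difference between groups, but every pair rose, by 0.28 to 0.40. The change of 0.37 was not called without the block (limma adjusted p 0.612) and was with it (0.00387). Without the block, leaving out EZHi replicate 2 lowered it to 0.08 and leaving out vehicle replicate 2 raised it to 0.645.

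OAS2 was at 1.22, 1.45, 1.08 and 1.28 in vehicle and at 1.90, 2.54, 1.36 and 1.65 in EZHi, with EZHi replicate 3 inside the vehicle range. Its change was 0.61 (limma adjusted p 0.0988, and 0.00687 with the block), and it was called without the block when EZHi replicate 3 was left out. OAS2 passed the filter only through its EZHi libraries, so its calls are not independent of its rise. OAS3 was at 7.75, 7.91, 7.02 and 7.59 in vehicle and at 7.94, 8.30, 7.55 and 7.85 in EZHi, overlapping groups with a rise in each pair and a change of 0.34 (0.334, and 0.00791 with the block). OASL was at 1.93, 2.15, 2.11 and 2.09 in vehicle and at 2.50, 2.81, 2.31 and 2.34 in EZHi. The OASL groups did not overlap and it was called higher (0.42, limma adjusted p 0.0388), a call that was lost in 6 of the 8 fits leaving out 1 library, those without each vehicle library and without EZHi replicates 1 and 2. With the block OASL was called too (limma adjusted p 0.0138), but not with quantile normalization of the libraries or without the pairs numbered 1 or 2.

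The 3 IFITM proteins, which block fusion of viruses at the membrane, were abundant. None was called higher in either fit, where 8.85% of all genes were without the block and 14.9% with it. IFITM3 was the most expressed of all members at an estimated FPKM of 614. IFITM1 (34.1) was at 9.95, 10.18, 9.75 and 9.81 in vehicle and at 9.56, 9.89, 9.61 and 9.23 in EZHi. IFITM2 (142) was at 11.93, 12.10, 11.77 and 12.02 in vehicle and at 11.62, 12.04, 11.60 and 11.44 in EZHi. Groups overlapped for both, and every pair was lower. The log2 changes of -0.35 and -0.28 were called with the block (limma adjusted p 0.0052 and 0.0224) and not without it (0.139 and 0.182). IFITM2 lost its call under the block with either alternative scaling of the libraries and without the pairs numbered 1, 3 or 4. IFITM3 differed by -0.10 with no call. The 3 genes are close copies, so some reads may not be placed with certainty among them. Separately, 31.6% of the exon bases of IFITM1 overlap annotated genes other than IFITM2 and IFITM3.

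The guanylate-binding proteins, GTPases that attack vacuoles of intracellular pathogens and respond mainly to interferon gamma, split. GBP1 was at 3.08, 3.31, 3.11 and 3.39 in vehicle and at 3.67, 3.80, 3.92 and 3.89 in EZHi. GBP2 was at 6.92, 6.42, 7.07 and 6.55 in vehicle and at 5.84, 5.64, 5.82 and 5.46 in EZHi. Neither pair of groups overlapped, and the directions were opposite. GBP1 rose by 0.60 ± 0.11 (SE, limma adjusted p 0.00481), while GBP2, a neighbour on chromosome 1, fell to 0.482 of its vehicle level (log2 change -1.05 ± 0.16, limma adjusted p 0.002). GBP3, between 3.30 and 4.04 over all libraries, was not called (0.21, limma adjusted p 0.485). Both calls held in all 8 fits that left out 1 library.

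ISG15 is a ubiquitin-like protein attached to targets by UBE2L6 and HERC ligases and removed by USP18, which also restrains the type I receptor. ISG15 itself was at 8.74, 8.87, 8.49 and 8.63 in vehicle and at 8.48, 9.07, 8.40 and 8.59 in EZHi. The groups overlapped throughout, with a change of -0.05 (95% interval -0.37 to 0.28, limma adjusted p 0.887) whose sign depended on the library left out. USP18 was at 7.84, 7.75, 8.0 and 7.70 in vehicle and at 7.76, 7.62, 7.75 and 7.42 in EZHi. Every pair of USP18 was lower, by 0.08 to 0.28 log2 units, and the change of -0.19 was not called (limma adjusted p 0.285, and 0.0576 with the block).

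HERC6, a HECT-type protein of the ligase family, was at 3.03, 3.04, 2.88 and 2.85 in vehicle and at 3.78, 3.85, 3.41 and 3.95 in EZHi. The groups did not overlap, and HERC6 rose by 0.80 ± 0.13 (SE, limma adjusted p 0.00248). UBE2L6, the conjugating enzyme, changed by 0.23 and passed with the block (limma adjusted p 0.0275) but not without it (0.13). Its call under the block was lost without the pairs numbered 1, 3 or 4.

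DTX3L and PARP9 form a complex of a ubiquitin ligase and an ADP-ribosyltransferase family member, and PARP14 is an ADP-ribosyltransferase nearby on chromosome 3. DTX3L was at 7.91, 8.14, 7.50 and 8.0 in vehicle and at 8.10, 8.46, 7.93 and 8.27 in EZHi. PARP9 was at 6.98, 7.27, 6.63 and 7.14 in vehicle and at 7.21, 7.56, 6.74 and 7.57 in EZHi. In both genes the groups overlapped, replicate 3 was the lowest of each group and all 4 pairs rose. The changes of 0.30 and 0.27 were called with the block (limma adjusted p 0.00669 and 0.0304) and not without it (0.251 and 0.455). PARP14 changed by 0.25 with the same outcome (0.0238 and 0.413). Under the block, DTX3L was called in each of 6 further fits that rescaled the libraries or left out a pair. PARP9 lost its call there with quantile normalization and without the pairs numbered 1, 2 or 4, and PARP14 without those numbered 1, 3 or 4. DTX3L and PARP9 share 139 exon bases on opposite strands beside the motif shown above.

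Other antiviral effectors were divided. SAMD9, a restriction factor of poxviruses that halts translation, was at 1.10, 1.20, 1.27 and 1.16 in vehicle and at 1.74, 1.73, 1.65 and 1.97 in EZHi. The groups were well apart, with a rise of 0.59 ± 0.08 (SE, limma adjusted p 0.000758) at an estimated FPKM of 0.111. SAMD9 passed the filter only through its EZHi libraries, so its call is not independent of its rise. MX1, the GTPase most used as a marker of type I interferon, was at 2.32, 3.06, 2.92 and 3.0 in vehicle and at 3.21, 3.23, 2.79 and 3.23 in EZHi. EZHi replicate 3 lay inside the vehicle range and the change of 0.29 was called in neither fit (limma adjusted p 0.334, and 0.195 with the block). BST2, the tether of budding viruses (119), ISG20, an exonuclease (2.79), and MX1 thus passed no test, with 95% intervals of -0.15 to 0.33 for BST2 and -0.40 to 0.52 for ISG20. IFIH1, the sensor of long double-stranded RNA also called MDA5, was at 6.96, 7.04, 6.96 and 6.70 in vehicle and at 7.24, 7.37, 7.08 and 7.04 in EZHi. The IFIH1 libraries rose in every pair and were called with the block (0.27, limma adjusted p 0.0243) and not without it (0.153). The call under the block was lost with quantile normalization and without the pairs numbered 1, 2 or 4. DDX60, a helicase below the filter, was between 0.38 and 1.14.

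**Figure D4:**
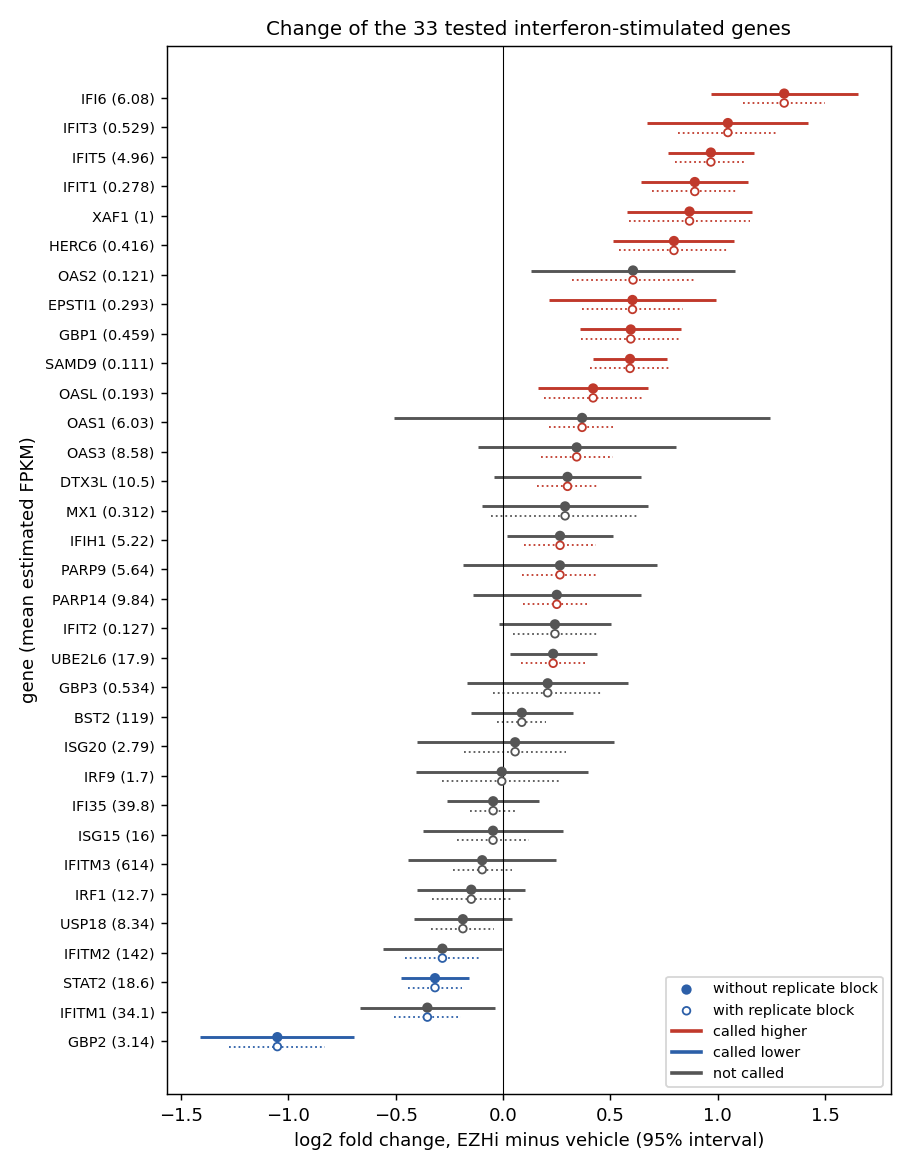
Log2 fold change with its 95% interval for the 33 tested genes, ordered by change, without the replicate block (filled points, solid lines) and with it (open points, dotted lines), coloured by the call in that fit; the mean estimated FPKM follows each name. Intervals of OAS1, OAS3 and PARP9 span 0 without the block and exclude it with the block.

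Of the 3 tested transcription factors that drive these genes, 0 were called higher without the block, where 8.85% of all genes were. The 1 called lower was STAT2, where 4.27% of all genes were. STAT2 was at 8.99, 9.01, 9.20 and 8.98 in vehicle and at 8.69, 8.78, 8.76 and 8.69 in EZHi. Its groups did not overlap and it was called lower (-0.32 ± 0.07 SE, limma adjusted p 0.0153). The call was lost without EZHi replicate 4 (change -0.305, limma adjusted p 0.052) and when libraries were centred on the genes at 10 FPKM and over. IRF9 was at 5.30, 5.77, 5.12 and 5.51 in vehicle and at 5.10, 5.48, 5.33 and 5.78 in EZHi, a difference of -0.01 with a 95% interval of -0.41 to 0.39. IRF7, the factor that amplifies interferon production, was below the filter, at -0.55, -0.56, -0.40 and -0.40 in vehicle and at -0.35, -0.56, -0.55 and -0.41 in EZHi. IRF1 changed by -0.15 without a call (limma adjusted p 0.458).

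Upstream of these genes, no ligand could be followed, since none of 22 interferon symbols was matched in the table and they are not analysed here. All 6 receptor chains were tested, and 0 were called by limma without the block, where 13.1% of all genes were. They also had no unadjusted p under 0.05. IFNAR1 differed by -0.07, IFNAR2 by -0.12, IFNGR2 by -0.06 and IL10RB by -0.26, and IFNGR1 (-0.23) and IFNLR1 (-0.19) were lower with the block (limma adjusted p 0.0127 and 0.0489, against 0.423 and 0.266 without it), as 15.1% of all genes were. The kinases JAK1 (-0.06), JAK2 (-0.06) and TYK2 (-0.03) were not called in either fit.

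Among 11 tested genes that sense RNA or DNA, 1 was higher (8.85% of all genes were) and 2 were lower (4.27%). With the block, STING1, an adaptor of DNA sensing, was also higher (limma adjusted p 0.0356) and MAVS, the adaptor of RIG-I and IFIH1, also lower (0.0246), which gave 2 higher (14.9% of all genes) and 3 lower (15.1%). TLR3, the endosomal receptor for double-stranded RNA, was at 2.13, 2.19, 2.32 and 1.87 in vehicle and at 3.72, 3.59, 4.23 and 3.43 in EZHi. It rose 3.06-fold (log2 change 1.61 ± 0.17 SE, limma adjusted p 0.000218) from a low level, an estimated FPKM of 0.354 over all libraries. TICAM1, the adaptor that carries the signal of TLR3, was at 6.54, 6.86, 6.70 and 6.65 in vehicle and at 5.94, 6.46, 6.17 and 6.17 in EZHi. TBK1, the kinase below it, was at 8.82, 9.06, 9.05 and 8.98 in vehicle and at 8.68, 8.74, 8.62 and 8.73 in EZHi. Both were lower without overlap, by log2 changes of -0.50 (limma adjusted p 0.0261) and -0.29 (0.0298). Leaving out 1 library ended the TICAM1 call in 5 of 8 fits (without vehicle replicates 2 and 4 and EZHi replicates 1, 3 and 4), and the TBK1 call in these and in the fit without vehicle replicate 3.

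A further 46 tested genes known to respond to interferon held 9 that were called higher and 0 called lower by limma without the block (2 lower at an unadjusted p under 0.05), where 8.85% and 4.27% of all genes were. With the block 14 were higher and 2 lower, where 14.9% and 15.1% of all genes were. Their median log2 change was 0.10. HERC5, the main ligase for ISG15 in human cells and the neighbour of HERC6 on chromosome 4, was at 2.32, 1.91, 2.12 and 2.17 in vehicle and at 3.84, 3.85, 3.65 and 3.56 in EZHi. It rose 3.02-fold (limma adjusted p 1.88e-05) with no overlap. MX2, a restriction factor of HIV, was at 5.58, 5.02, 5.90 and 5.95 in vehicle and at 6.50, 6.32, 6.88 and 6.93 in EZHi. MX2 rose by 1.05 (limma adjusted p 0.0118), above the vehicle range in every library. SLFN5, of the Schlafen family, was at 2.87, 3.36, 2.76 and 3.34 in vehicle and at 3.93, 3.80, 4.13 and 4.22 in EZHi. CMPK2, a mitochondrial nucleotide kinase, was at 3.38, 3.21, 2.77 and 2.52 in vehicle and at 4.19, 4.12, 3.53 and 3.61 in EZHi. Neither overlapped between groups, and the rises were 0.94 (limma adjusted p 0.00442) and 0.89 (0.0241). CMPK2 lost its call without vehicle replicates 3 or 4 and without EZHi replicates 1 or 2. NMI, SP110, HELZ2, DDX60L and APOL6 were the other 5, with changes from 0.45 to 0.77.

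Of 12 tested brakes on sensing and signalling, including ADAR and SOCS1, 0 were called by limma without the block, where 13.1% of all genes were. With the block 2, SOCS1 and PTPN6, were lower, where 15.1% of all genes were. These 2 had an unadjusted p under 0.05 without it. Of 4 tested genes of endogenous retroviral origin, 0 were called by limma in either fit or had an unadjusted p under 0.05. Another 3 of that list, ERVMER34-1, ERVV-2 and ERVW-1, were below the filter and were not tested. ERVMER34-1 (0.0902) was at 0.87, 0.77, 0.78 and 0.87 in vehicle and at 1.66, 1.27, 1.57 and 1.53 in EZHi. Its groups did not overlap and every pair rose, while the groups of ERVV-2 and ERVW-1 overlapped. Over the 87 tested genes upstream of or beside the 33, 10 were called higher (11.5%, beside 8.85% of all genes) and 2 lower (2.3%, beside 4.27%). With the block 17 were higher (19.5%, beside 14.9%) and 11 lower, where 15.1% of all genes were. With libraries centred on the genes at 10 FPKM and over, 13 were higher and 0 lower. That fit called 2550 of all 20153 genes higher and 319 lower. The median change of the 87 genes was -0.02. Without vehicle replicate 4, the number called fell to 7, all higher, where 1459 of all genes were higher and 454 lower.

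**Figure D5:**
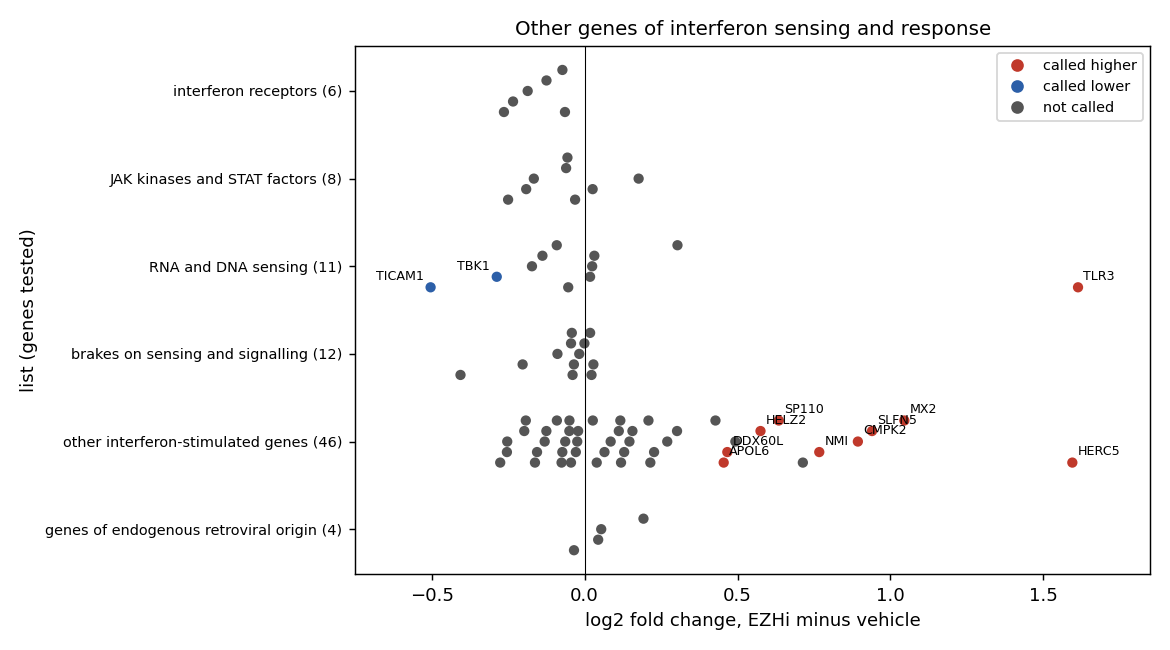
Log2 fold change (EZHi minus vehicle) of 87 other genes of interferon sensing and response, 1 point per gene in rows by role, with called genes named (red higher, blue lower, without the block). Points of receptors, kinases and brakes lie between -0.41 and 0.18, and the red points are TLR3 and 9 of the other interferon-stimulated genes.

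HepG2 identity and other cell types were checked with marker lists. The 10 hepatocyte markers, ALB and AFP among them, were all expressed, with a median estimated FPKM of 1412. FGB was the 1 that was called higher without the block (8.85% of all genes were). With it APOA1 and APOB were higher too (14.9% of all genes were), and ALB was lower (15.1%). Of 9 leukocyte markers 7 were matched. Their summed estimated FPKM was 1220 to 1700 in vehicle and 1100 to 1570 in EZHi, nearly all of it LYZ. Of the 6 tested, ITGAM was the 1 called higher without the block (0.88). With it CSF1R and NKG7 were higher too. Of the 4 endothelial markers matched and tested, CDH5 (2.28) and VWF (1.45) were higher in both fits, and LYVE1 only with the block. The summed estimated FPKM of these 4 was 2.48 to 2.98 in vehicle and 3.93 to 7.43 in EZHi. Of 2 tested fibroblast and stellate markers, 0 were called by limma in either fit, where 13.1% of all genes were without the block and 30% with it. No marker list was tested for a part in the interferon genes.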

How the data were processed

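RNA was measured in 8 HepG2 libraries, 4 per group. Per the study's methods and the submitters' processing notes, the authors mapped reads to hg38 with HISAT2 (2.2.1 in the notes), counted them over exons without strand with HTSeq 0.9.1, removed genes with fewer than 10 reads in all and applied the regularized log of DESeq2 1.40.2. The deposited values, named FPKM, are on a log2 scale after subtraction of log2 transcript length, and run from -6.81 to 19.01. They are not counts, so no count model was run, and depth is unknown. One repeated row was dropped.

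Estimated FPKM is 2 to the power of the value, divided by 25.6, the mean library sum of values times length (in 1e6, range 24.4 to 27.3). Genes with a mean of at least 0.1 were fitted with limma 3.58.1 (R 4.3.3, lmFit, eBayes with trend, two-sided, Benjamini-Hochberg over 20153 genes). The planned log2 with a pseudocount of 0.5 was run as an alternative because values were already logarithmic. Titles number replicates 1 to 4 in both groups, and deviations of same-numbered libraries correlated at 0.31, 0.558, 0.634 and 0.216 over all genes tested. The numbers were taken as pairs, and a fit with replicate number as a block was run. Among libraries of unlike number, vehicle 1 with EZHi 2 (0.199) and vehicle 2 with EZHi 1 (0.163) also correlated. The others were at 0.076 or lower. Fits were tested on simulated data.

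The members, lists and tests were chosen with earlier results of these data known. Values were given for called members, for ISG15, IFIT1, MX1, OAS1, IFI6, IFI44L, IRF7, IRF9, STAT2 and USP18, for the 8 with the largest change among those called only with the block, for called pathway genes (at most 4 per list), and for receptors and JAK kinases. One gene that this rule also names is not reported here. SOCS1, PTPN6, STING1, MAVS, NMI, SP110, HELZ2, DDX60L, APOL6 and the markers were named after their values were seen. Exon overlaps come from GENCODE 44. Alternatives were quantile normalization, centring, other filters, no trend, and leaving out each library. Tables and plots used pandas 2.3.3, numpy 2.4.6 and matplotlib 3.10.9 under Python 3.11.15.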

Additional observations from a re-analysis of the deposited data

Results flagged for a closer look

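In 4 of 84 groups of 4 libraries, taken from the members and pathway genes given with values, 1 library stood apart by more than the 95% critical value of Dixon, where chance gives about 1 in 20. EPSTI1 was at 3.63 in EZHi replicate 2, against 2.93 to 3.03 in the other EZHi libraries, a gap of 0.850 of the range. STAT2 was at 9.20 in vehicle replicate 3, against 8.98 to 9.01 (0.886). MX1 was at 2.79 in EZHi replicate 3, against 3.21 to 3.23 (0.959). IFI44L was at 0.72 in vehicle replicate 4, against 0.56 to 0.57 (0.946), at a level below the filter. Without EZHi replicate 3, MX1 changed by 0.40 and was still not called, and without EZHi replicate 2 EPSTI1 changed by 0.44 and was not called. STAT2 kept its call without vehicle replicate 3.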

How the results depend on the processing

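Of 825 values of single genes under the alternatives, 692 kept their direction and their side of the threshold, 44 lost a call, 52 gained one and 37 changed sign. The changes of sign were all in genes not called here. With libraries centred on genes at FPKM 10 and over, with or without the block, ISG15 was at 0.049, IRF9 at 0.089, IFNAR1 at 0.023, IFNGR2 at 0.031, JAK1 at 0.035, JAK2 at 0.040 and TYK2 at 0.065 on the log2 scale, and quantile normalization gave JAK1 0.015 and TYK2 0.062. Leaving out 1 library moved ISG15 between -0.192 and 0.031 (positive values 0.017, 0.004 and 0.031), IRF9 between -0.125 and 0.110 (0.110, 0.023, 0.102 and 0.024), IFNAR2 between -0.217 and 0.029, IFNGR2 between -0.239 and 0.257 (0.007 in another fit), JAK2 between -0.143 and 0.036, and TYK2 between -0.088 and 0.010 (0.009 in another). With the block and a pair left out, ISG15 was at 0.023, IRF9 at 0.058 and 0.091, IFNGR2 at 0.328, JAK2 at 0.059 and TYK2 at 0.003.

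The number of called members was 12 and ranged from 10 to 12 when 1 library was left out, with 8 to 10 higher and 1 to 3 lower. The replicate block, which uses the pairing of the libraries, gave 22 (18 higher, 4 lower), and it ended none of the 12 calls. A minimum FPKM of 1 gave 5 (3 higher), fewer genes being tested, and centring left 1 lower. Chosen after seeing the data, the block gave 23 with centring (20 higher), 20 with quantile normalization (16 higher, 4 lower), and 19 without replicate 2 (4 lower) and without replicate 3 (16 higher), and 16 and 17 without replicates 1 and 4. Of 12 called pathway genes, leaving out 1 library gave 7 to 12 (0 to 2 lower). A minimum FPKM of 1 gave 7 (5 higher), centring 0 lower, the block 28 (17 higher, 11 lower), the block with centring 25 (22 higher), and with quantile normalization 25 (18 higher, 7 lower). With the block and a pair left out, the numbers were 21 (16 higher, 5 lower) without replicate 1, 24 (10 lower) without replicate 2, and 5 and 4 lower without replicates 3 and 4. Over all 20153 genes, leaving out 1 library gave 1422 to 1711 higher and 389 to 860 lower. Centring gave 2550 higher and 319 lower, and the block 3003 and 3048. The block with centring gave 4549 higher and 1368 lower, and with quantile normalization 2769 and 2824. With the block and a pair left out, 2336 to 2546 were higher and 1788 to 2497 lower. At a minimum FPKM of 1, 780 of 13007 genes were higher and 799 lower. The cause of the changes in number was not tested, beyond the smaller number of genes at the stricter filter.

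Over all genes, the share of higher among called genes was 67.5%, and was 88.9% with centring, which moved the median log2 change from -0.01 to 0.09, and 49.6% with the block. Depth is unknown and values near the floor were shrunken, so IFI27, IFI44, IFI16, IRF7 and DDX60 carry little information either way. Of the members below the filter, only IFI44L was called when no filter was set.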
